A study of Mus musculus with 36 samples.

Results

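The nuclear genes of the mitochondrial respiratory chain were followed in kidneys of obese ob/ob mice and of lean C57BL/6 mice that had been given cadmium chloride (CdCl2). Members were the protein-coding genes outside the mitochondrial chromosome whose Ensembl 96 symbol starts with Nduf, Sdha, Sdhb, Sdhc, Sdhd, Uqcr or Atp5, or with Cox followed by 4 to 8, together with Cyc1 and Cycs. This gave 100 of the 55536 annotated genes. Of these, 44 were assigned to complex I, 8 to complex II, 9 to complex III, 1 is cytochrome c, 20 were assigned to complex IV and 18 to complex V. By role, 78 are subunits, 14 are assembly factors and 8 are second isoforms of complex IV subunits. A further 12 processed pseudogenes and 1 long noncoding RNA matched the symbols and were left out.

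The 36 kidney RNA-seq libraries formed 6 groups of 6, all of the C57BL/6 strain. The ob groups are the ob/ob type, which lacks leptin, and received 0.5 or 2 mg/kg CdCl2 or no treatment. The b6j groups are the normal C57BL/6 type and had the same doses or no treatment. Route, duration, age and sex are not given in the labels. They also do not state that each library is a separate mouse, so p-values measure the spread between these libraries. Libraries held 26783936 to 37244058 counted reads. Levels are given as CPM, counted reads per library scaled to a common size with the trimmed mean of M-values, and changes as log2 ratios ± standard error. A gene was called when the Benjamini-Hochberg adjusted p of edgeR's quasi-likelihood test was below 0.05 over the 18180 genes tested. Of the 100 members, 97 passed the filter on low counts. The other 3 were Cox7b2, Cox8c and a second gene model of Atp5o that had no read. All 530 exon bases of that model are shared with other genes, and reads that fall on several genes were not counted. The tested Atp5o shares 47.9% of its exon bases.

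The respiratory chain passes electrons from NADH through complex I, or from succinate through complex II, to ubiquinone, and on through complex III and cytochrome c to complex IV, where oxygen is reduced. Complexes I, III and IV pump protons across the inner mitochondrial membrane, and complex V lets them back to make ATP. A few core subunits are encoded in mitochondrial DNA, while the genes described here are transcribed in the nucleus and their proteins imported. Proximal tubule cells of the kidney are rich in mitochondria and are a main site of cadmium uptake. NRF1, the ETS factor GABP and YY1 are transcription factors known for binding promoters of such genes.

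Promoter windows of 250 bases before to 50 after the start came from RefSeq (GRCm38.p6). Of the members with reads, 97 matched by symbol and 2 by synonym, and 81 had a window. The NRF1 motif (GCGCA, any base, GCGC) stood on either strand in 21 of the 81 (25.9%), against 7.17% of 17492 protein-coding genes with windows. The GABP motif (CCGGAAG) stood in 21 (25.9%), against 12.9% of all, and the YY1 motif (GCCATNTT) in 20 (24.7%), against 7.46% of all. At least one of the NRF1 and GABP motifs stood in 37 (45.7%), against 18.6% of all. The 17492 genes were not limited to those with reads in kidney, so the shares do not compare genes of like expression, and they were not tested.

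The windows below are of genes that later results turn on, all on the minus strand and written 5′ to 3′ along the gene. Ndufb4 (chr16:37654319-37654618) and Sdha (chr13:74350191-74350490) fell at 2 mg/kg in both genotypes and have 3 NRF1 motifs each. Cox6a1 (chr5:115348909-115349208) and Cox8a (chr19:7217567-7217866) had a different response in the 2 genotypes, and have 2 NRF1 motifs with 1 GABP motif and 2 GABP motifs. Cox7a2 (chr9:79759804-79760103) fell and has none of the 3 motifs. Capitals mark the motifs, and CTTCCGG is the GABP motif on the other strand.
Ndufb4: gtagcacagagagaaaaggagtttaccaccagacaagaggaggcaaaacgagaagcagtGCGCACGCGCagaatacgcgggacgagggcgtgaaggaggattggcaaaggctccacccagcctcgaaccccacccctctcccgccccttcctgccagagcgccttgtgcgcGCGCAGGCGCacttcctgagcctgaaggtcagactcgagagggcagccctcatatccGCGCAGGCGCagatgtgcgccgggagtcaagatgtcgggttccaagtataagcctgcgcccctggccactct
Sdha: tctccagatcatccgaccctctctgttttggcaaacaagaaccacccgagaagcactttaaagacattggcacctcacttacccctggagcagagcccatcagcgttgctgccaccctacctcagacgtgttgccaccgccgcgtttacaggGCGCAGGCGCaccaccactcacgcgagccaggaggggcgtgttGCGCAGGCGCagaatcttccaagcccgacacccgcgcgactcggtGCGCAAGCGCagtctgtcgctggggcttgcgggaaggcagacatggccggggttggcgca
Cox6a1: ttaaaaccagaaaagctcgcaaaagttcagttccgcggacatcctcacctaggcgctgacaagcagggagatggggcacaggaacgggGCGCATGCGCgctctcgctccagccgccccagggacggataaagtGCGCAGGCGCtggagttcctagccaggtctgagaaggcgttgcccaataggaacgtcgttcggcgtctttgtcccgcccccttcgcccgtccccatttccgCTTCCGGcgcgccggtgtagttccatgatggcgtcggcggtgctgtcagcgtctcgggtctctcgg
Cox8a: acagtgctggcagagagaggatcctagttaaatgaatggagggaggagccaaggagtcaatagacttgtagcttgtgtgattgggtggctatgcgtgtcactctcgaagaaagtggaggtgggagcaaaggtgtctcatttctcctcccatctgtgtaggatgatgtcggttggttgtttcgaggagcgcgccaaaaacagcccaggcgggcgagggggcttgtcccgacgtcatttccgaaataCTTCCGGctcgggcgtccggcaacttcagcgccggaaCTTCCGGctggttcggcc
Cox7a2: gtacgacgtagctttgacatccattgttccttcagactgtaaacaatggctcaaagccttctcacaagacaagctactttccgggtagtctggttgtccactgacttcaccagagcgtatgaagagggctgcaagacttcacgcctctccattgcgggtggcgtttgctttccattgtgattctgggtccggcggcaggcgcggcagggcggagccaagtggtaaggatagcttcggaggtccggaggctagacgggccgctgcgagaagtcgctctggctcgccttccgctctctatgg
A match describes letters only. The median change at 2 mg/kg in ob was -0.25 for 21 tested members with the NRF1 motif and -0.27 for 59 without it, and the medians in b6j were -0.30 and -0.39. For the GABP motif the medians were -0.29 with it and -0.25 without it in ob, and -0.43 and -0.38 in b6j. For the YY1 motif they were -0.31 for 20 members with it and -0.24 for 60 without it in ob, and -0.39 and -0.39 in b6j. These differences were not tested.

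Some libraries stood apart from their groups. Replicate 5 of ob at 2 mg/kg lay at 135.9 on the first principal component of all genes, where the next library lay at 69.1. Its CPM summed over 12 proximal tubule markers was 2201, against 27850 to 38000 in ob controls. Such a sum, here and below, follows its most abundant markers most. Replicate 6 of b6j at 0.5 mg/kg stood high for the members. Its median member lay 0.15 above the mean of b6j controls on the log2 scale, and those of the other 5 in its group lay between -0.21 and -0.09. In 12 libraries the sample's own count file holds more reads than its column of the joined deposited table, and 11 of the 12 are b6j. Comparisons between genotypes are therefore also given with those 12 marked by a covariate.

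Most members were lower at 2 mg/kg than in controls in both genotypes. In ob, 56 of 97 were called lower at 2 mg/kg than in controls, against 18% of all genes, and 4 were called higher, against 20.4%. The 60 calls compare with 38.4% of all genes, and a fit to the ob groups alone left 39 lower and 0 higher. In b6j, 76 of 97 were called lower at 2 mg/kg than in controls, against 11.4% of all genes, and 0 were called higher, against 12.3%. These 76 calls compare with 23.7% of all genes.

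The falls were shallow. The median log2 ratio of the members was -0.27 in ob and -0.38 in b6j, a fold of 0.831 and 0.769, while that of all genes was 0.01 and 0.02. Among called members the falls ran from -1.36 to -0.17 in ob and from -1.33 to -0.20 in b6j. The 1 member that fell by more than 1 on the log2 scale in each genotype was Cox6a2, a gene of very low level. In whole-kidney RNA, fewer cells of a type and less RNA per cell cannot be told apart.

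Libraries at 2 mg/kg and untreated libraries separated by their median member. Relative to the mean of b6j controls, the 6 ob libraries at 2 mg/kg lay at -0.50 to -0.19 (median -0.31), against -0.16 to 0.03 (median -0.06) in ob controls. The 6 b6j libraries at 2 mg/kg lay at -0.42 to -0.27 (median -0.38), against -0.11 to 0.05 (median 0.02) in b6j controls. The plot of library positions shows no overlap of these groups in either genotype. Libraries at 0.5 mg/kg lay at -0.12 to 0.07 in ob and -0.21 to 0.15 in b6j, and overlapped their controls.

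Gene by gene the separation was less complete in ob. All 6 ob libraries at 2 mg/kg lay below all 6 controls for 31 members, against 8.73% of all genes, and above them for 1, against 8.39%. In b6j this was so for 69 members below, against 8.92% of all genes, and 0 above, against 8.36%.

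**Figure D1:**
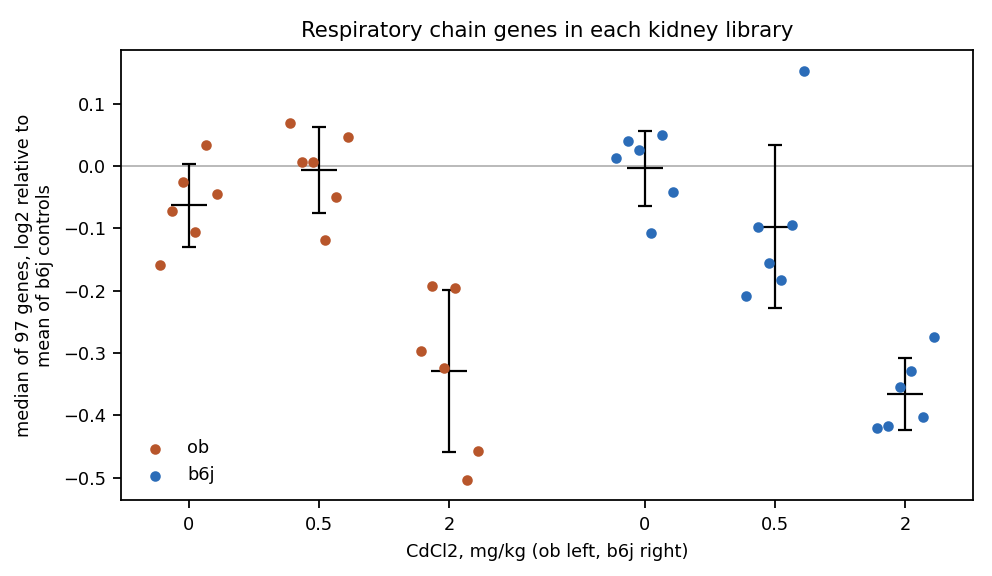
Median log2 level of the 97 tested genes in each of 36 kidney libraries, relative to the mean of b6j controls (vertical axis), by CdCl2 dose in mg/kg and genotype (horizontal axis). Points are libraries, and in both genotypes the 6 libraries at 2 mg/kg lie below all 6 of their controls.

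The ob and b6j comparisons at 2 mg/kg have no library in common. Of the members called lower, 51 were called in both genotypes, which is 91.1% of the 56 in ob and 67.1% of the 76 in b6j. With 76 of 97 members called lower in b6j, a large overlap follows from the counts alone, and the overlap was not tested. A further 25 were called lower in b6j and not called lower in ob, and 5 were called lower in ob and not called in b6j. The change was negative for 84 of 97 members in ob, for 93 in b6j and for 82 in both. Across the 97 genes, which share their libraries, the changes in ob and in b6j had a Pearson r of 0.18 and a Spearman rho of 0.37.

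Complex I, the NADH dehydrogenase, is the largest complex. Of its 36 subunits, 22 were called lower and 1 higher at 2 mg/kg in ob, and 32 were called lower and 0 higher in b6j. CPM summed over its 44 members, 36 subunits and 8 assembly factors, averaged 4563 ± 397 in ob at 2 mg/kg and 5478 ± 289.7 in ob controls (SD, n = 6 each). In b6j the sums averaged 4431 ± 222 at 2 mg/kg and 5855 ± 273 in controls. The treated means were 16.7% lower in ob and 24.3% lower in b6j.

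Ndufb4, an accessory subunit of the membrane arm (chromosome 16, 37647170 to 37654453), had the smallest p of all members in b6j. In ob it had 53.3, 58.5 and 66.9 CPM as the lowest, median and highest library at 2 mg/kg, against 77.4, 83.6 and 98.6 CPM in controls. In b6j it had 55.4, 59.2 and 72.5 CPM, against 90.9, 97.3 and 101 CPM in controls. Treated and control libraries did not overlap in either genotype. The change was -0.51 ± 0.07 in ob (adjusted p = 2.57e-07) and -0.67 ± 0.07 in b6j (adjusted p = 1.93e-09).

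Core subunits fell as well. Ndufs1, the large iron-sulfur subunit of the arm that takes up electrons, changed by -0.43 ± 0.10 in ob and -0.30 ± 0.10 in b6j. Ndufv1, which binds NADH and flavin, changed by -0.28 ± 0.08 in ob and -0.43 ± 0.08 in b6j. All 4 changes were called, and the b6j call of Ndufs1 ended without b6j control replicate 6 (adjusted p = 0.0635) or without replicate 2 of b6j at 2 mg/kg (adjusted p = 0.0641).

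Ndufab1, the mitochondrial acyl carrier protein and also a subunit of complex I, was among the 4 falls with the smallest p in ob. It had 41.9, 69.0 and 81.7 CPM as lowest, median and highest at 2 mg/kg in ob, against 96.1, 101 and 111 CPM in controls. Its libraries did not overlap in ob or in b6j. It changed by -0.59 ± 0.09 in ob (adjusted p = 3.09e-06) and by -0.43 ± 0.09 in b6j.

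The 4 complex I subunits not called in b6j were Ndufs3 (-0.18), Ndufa7 (-0.17), Ndufb2 (-0.29) and Ndufb6 (-0.19), named after their values were seen. All but Ndufb2 were called lower there without replicate 5 of ob at 2 mg/kg, which enters these tests only through the common estimate of spread and the scaling. Ndufb6, a membrane-arm subunit, was the 1 complex I gene called higher in ob, at 0.21 ± 0.08 (adjusted p = 0.0362). Without replicate 5 its change was 0.15 ± 0.07 (adjusted p = 0.108), and the call also ended without replicate 1 of that group or control replicate 1 or 6 (adjusted p of 0.0643 to 0.108 over the 4). Ndufb6 also shares 39% of its exon bases with the gene Smim27, and reads that fall on both are not counted.

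Complex II, succinate dehydrogenase, has all its subunits encoded in the nucleus, and all 4 were called lower in both genotypes. Sdha, the flavoprotein that oxidises succinate (chromosome 13, 74322254 to 74350280), had 361, 683 and 769 CPM as lowest, median and highest at 2 mg/kg in ob, against 867, 900.3 and 951 CPM in controls. The b6j libraries had 636, 765 and 833 CPM, against 906, 944 and 972 CPM in controls. The groups did not overlap, and the lowest ob library was replicate 5.

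Sdha changed by -0.49 ± 0.10 in ob (adjusted p = 0.000161) and -0.31 ± 0.10 in b6j (adjusted p = 0.0181), and the b6j call ended without replicate 2 of b6j at 2 mg/kg (adjusted p = 0.0512). Sdhb, the iron-sulfur subunit, changed by -0.39 ± 0.09 in ob and -0.39 ± 0.09 in b6j. The membrane anchors were alike, with Sdhc at -0.27 in ob and -0.29 in b6j, and Sdhd at -0.31 in ob and -0.23 in b6j.

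In complex III, the cytochrome bc1 complex, 5 of 9 subunits were called lower in ob and 8 of 9 in b6j. Uqcr11, a small subunit, had 137, 155 and 179.7 CPM as lowest, median and highest at 2 mg/kg in ob, against 183, 221 and 222 CPM in controls. In b6j it had 136, 143 and 159 CPM, against 194, 229.6 and 257 CPM in controls. No treated library reached a control of its genotype. It changed by -0.41 ± 0.09 in ob and -0.67 ± 0.09 in b6j (adjusted p = 6.63e-07).

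Cyc1, the cytochrome c1 that hands electrons to cytochrome c, changed by -0.20 ± 0.06 in ob and -0.39 ± 0.06 in b6j, both called, and the ob call ended without ob control replicate 5 (adjusted p = 0.0511). Uqcrc1, a core protein of the matrix side, fell by 0.30 ± 0.07 in b6j, and its log2 ratio of -0.17 ± 0.07 in ob was not called. Uqcrfs1, the Rieske iron-sulfur protein, was called in neither genotype, at -0.05 ± 0.06 in ob and -0.13 ± 0.06 in b6j. It was called lower in b6j once replicate 5 of ob at 2 mg/kg was left out, at -0.13 ± 0.05 (adjusted p = 0.0298).

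Complex IV, cytochrome c oxidase, held 2 of the 4 genes called higher in ob among its subunits and 1 among its assembly factors. Of its 11 subunits, 5 were called lower and 2 higher in ob, and 9 were called lower and 0 higher in b6j. CPM summed over its members averaged 4526 ± 423 in ob at 2 mg/kg and 4775 ± 208 in ob controls, a ratio of 0.948 and a difference smaller than the SD of the treated group. The b6j sums averaged 4030 ± 122 at 2 mg/kg and 5019 ± 244 in controls, a ratio of 0.803 (SD, n = 6 each).

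Cox4i1, the common form of subunit 4, changed by -0.31 ± 0.08 in ob (adjusted p = 0.00313) and -0.46 ± 0.08 in b6j (adjusted p = 7.33e-05). Its treated libraries lay below all controls in both genotypes. Cox5a, which sits on the matrix side, fell by 0.29 ± 0.06 in b6j, and its log2 ratio of -0.12 ± 0.06 in ob was not called.

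Cox7a2, a small subunit of complex IV, was the 1 member called in b6j at both doses. Its b6j libraries had 203, 227 and 246 CPM as lowest, median and highest in controls, 169, 175 and 211 CPM at 0.5 mg/kg and 135, 146 and 167 CPM at 2 mg/kg. All libraries at 2 mg/kg lay below those at 0.5 mg/kg, and 1 library at 0.5 mg/kg, replicate 5, lay within the controls' range. The ob libraries had 208, 218 and 245 CPM in controls, 184, 219 and 227 CPM at 0.5 mg/kg and 153, 174 and 183 CPM at 2 mg/kg. In ob only the high dose lay apart from the controls. Cox7a2 changed at the high dose by -0.38 ± 0.07 in ob (adjusted p = 3.73e-05) and -0.61 ± 0.07 in b6j (adjusted p = 2.23e-08).

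Complex V, the ATP synthase, had 9 of 16 tested subunits called lower in ob and 13 of 16 in b6j. Atp5b, the catalytic β subunit, had 2148, 2798 and 2822 CPM as lowest, median and highest at 2 mg/kg in ob, against 2808, 2865 and 3118 CPM in controls. Lean b6j kidneys had 2760, 3058 and 3365 CPM, against 3296, 3439 and 3494 CPM in controls. Treated and control libraries overlapped in both genotypes, and neither log2 ratio was called (-0.15 ± 0.06 in ob, -0.15 ± 0.06 in b6j). Atp5a1, the α subunit, changed by -0.18 ± 0.06 in ob (adjusted p = 0.0273), a call that ended without any 1 of 6 ob libraries, control replicates 2, 3, 5 and 6 and treated replicates 5 and 6 (adjusted p of 0.0505 to 0.075). Its log2 ratio in b6j, -0.16 ± 0.06, was not called. Both were called lower in b6j once replicate 5 of ob at 2 mg/kg was left out, Atp5b at -0.16 ± 0.05 (adjusted p = 0.0141) and Atp5a1 at -0.17 ± 0.05 (adjusted p = 0.00511).

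The proton-carrying ring of subunit c is encoded by 3 genes. Atp5g1 fell by 0.55 ± 0.09 in b6j (adjusted p = 1.19e-05), and its log2 ratio of -0.19 ± 0.09 in ob was not called. Atp5g2 changed by -0.41 ± 0.06 in ob (adjusted p = 2.18e-06) and -0.30 ± 0.06 in b6j, both called. Atp5g3 changed by -0.38 ± 0.09 in ob and -0.50 ± 0.09 in b6j, both called. Atp5j, a coupling factor between the head and the membrane part, changed by -0.42 ± 0.07 in ob and -0.50 ± 0.07 in b6j (adjusted p = 7.12e-07).

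Some of these calls depended on the fit. With the ob groups alone, the ob calls of Ndufs1 (adjusted p = 0.0640), Ndufv1 (adjusted p = 0.0831), Cyc1 (adjusted p = 0.126) and Atp5a1 (adjusted p = 0.255) ended. With library size as the only scaling, the b6j calls of Ndufs1 (adjusted p = 0.138) and Sdha (adjusted p = 0.0876) ended, and the median gene moved to 0.12 in b6j.

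**Figure D2:**
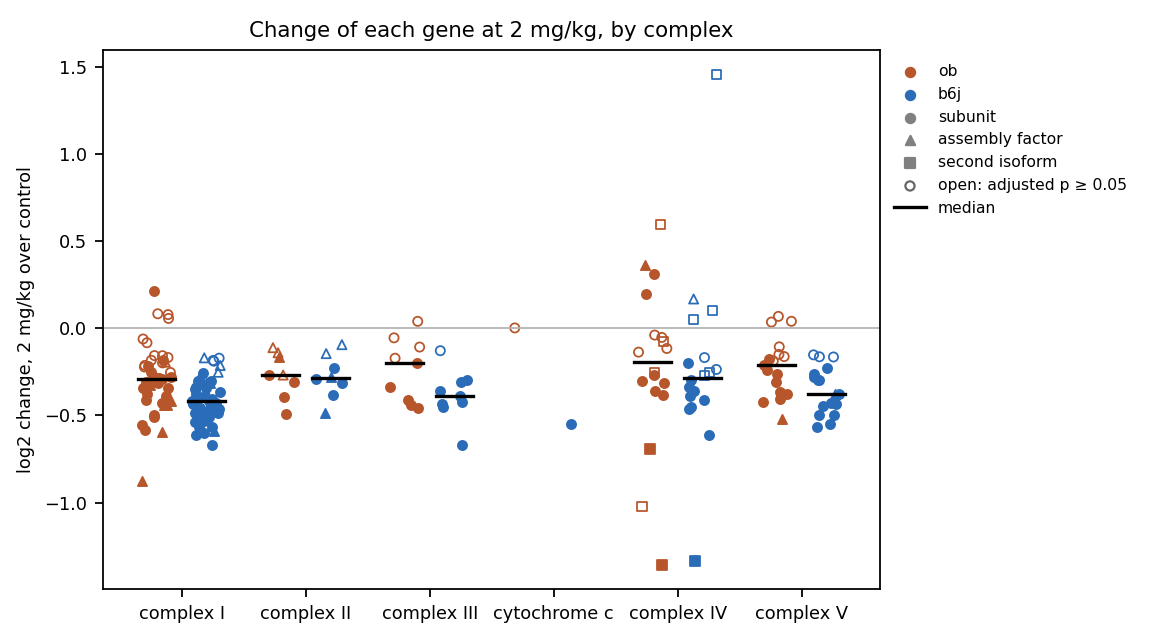
Log2 change of each tested gene at 2 mg/kg over its own control (vertical axis) by complex (horizontal axis), ob left of b6j. Shapes give the role, filled symbols were called and bars are medians; most filled symbols lie below 0, and the 4 filled ones above 0 are ob genes.

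Assembly factors help to build the complexes. Of 14, 9 were called lower and 1 higher in ob, and 8 lower and 0 higher in b6j. Ndufaf3, which acts early in building complex I, had 13.1, 15.1 and 18.6 CPM as lowest, median and highest at 2 mg/kg in ob, against 24.1, 27.6 and 30.8 CPM in controls. Lean b6j kidneys had 16.8, 18.6 and 19.4 CPM, against 22.2, 28.6 and 30.1 CPM in controls. The groups did not overlap in either genotype. Its change of -0.88 ± 0.08 in ob had the smallest p of all members there (adjusted p = 4.74e-10), and in b6j it changed by -0.59 ± 0.08.

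Cox7a2l, described as a factor for supercomplexes of complexes III and IV, was called higher in ob. Its protein and the supercomplexes were not measured here. It had 169.8, 189.6 and 305 CPM as lowest, median and highest at 2 mg/kg in ob, against 142, 164 and 169 CPM in controls. In b6j it had 149.6, 163 and 175 CPM, against 127, 147 and 154 CPM in controls. It is the 1 member whose treated ob libraries all lay above the controls, and in b6j the groups overlapped. The change was 0.36 ± 0.09 in ob (adjusted p = 0.00134) with a call, and the log2 ratio in b6j, 0.17 ± 0.09, had none. Replicate 5 held the highest value, and without it the ob change was 0.22 ± 0.06 (adjusted p = 0.00188) and that of b6j was called too, at 0.16 ± 0.05 (adjusted p = 0.0192). In a fit to the compared groups alone, none of the 4 members called higher in ob was called, and Cox7a2l had an adjusted p of 0.0508.

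The second isoforms of complex IV subunits, known mainly from muscle, lung or testis, had low levels in kidney. Cox7b2 had reads in 3 libraries and Cox8c in 4. The group means of the 6 tested ran from 0.458 CPM (Cox4i2, b6j at 2 mg/kg) to 10.9 CPM (Cox6b2, ob at 2 mg/kg). That highest mean rests on replicate 5, with 36.1 CPM, where the other 5 libraries held 4.32 to 7.04 CPM, and the next was 10.1 CPM (Cox7a1, ob at 0.5 mg/kg). Cox6a2, the heart and muscle form of subunit 6a, had 0.312, 0.916 and 1.73 CPM as lowest, median and highest at 2 mg/kg in ob, against 1.42, 2.66 and 3.43 CPM in controls. The b6j libraries had 0.127, 0.480 and 1.07 CPM, against 0.373, 1.2 and 2.52 CPM in controls. The groups overlapped in both genotypes, and 3 counts are worth 0.0806 to 0.112 CPM in these libraries. The changes of -1.36 ± 0.38 in ob (adjusted p = 0.00478) and -1.33 ± 0.40 in b6j (adjusted p = 0.0131) were called, and the b6j call ended without b6j control replicate 2 (adjusted p = 0.0632).

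Ndufa4l2, the relative of the complex IV subunit Ndufa4 that hypoxia induces, was called lower in ob at -0.69 ± 0.26 (adjusted p = 0.0312) and not called in b6j at 0.10 ± 0.26. It had 0.405, 3.19 and 4.20 CPM as lowest, median and highest in ob at 2 mg/kg, against 3.67, 4.76 and 6.16 CPM in controls. The groups overlapped, and the lowest value was replicate 5, without which the change was -0.45 ± 0.16 (adjusted p = 0.0246). The call ended with the ob groups alone (adjusted p = 0.204) and without ob control replicate 2, 4 or 5 (adjusted p of 0.0553 to 0.0793).

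The other 4 second isoforms were not called at 2 mg/kg. Their log2 ratios in ob and in b6j were -0.08 and -0.25 for Cox4i2, -0.25 and -0.27 for Cox7a1, 0.60 and 0.05 for Cox6b2, and -1.02 ± 1.00 and 1.46 ± 1.00 for Cox8b. Without replicate 5 the ob ratio was -0.29 for Cox6b2 and -0.05 for Cox7a1. Cox7a1 and Cox8b are also genes of brown fat and muscle. In b6j at 2 mg/kg 3 of 7 white fat markers, 2 of 4 tested muscle markers and 0 of 3 tested brown fat markers were called higher, and without replicate 5 of ob at 2 mg/kg 4, 2 and 1. Summed white fat markers ran from 56.3 to 341 CPM there, against 37.9 to 98.7 CPM in b6j controls, and the part of such tissue in these values was not tested.

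At 0.5 mg/kg few members were called. In ob, 2 of 97 were higher than in controls, against 3.55% of all genes, and 0 were lower, against 0.737%. In b6j, 1 of 97 was lower than in controls, against 0.0275% of all genes, and 0 were higher, against 0.297%. The b6j call compares with 0.325% of all genes. The median log2 ratio of the members was 0.06 in ob and -0.09 in b6j, and that of all genes -0.01 and 0.00. At an unadjusted p below 0.05, 14 members were higher and 2 lower in ob, and 0 were higher and 16 lower in b6j. The share of all genes at that unadjusted p is not given. Of all genes called at this dose by adjusted p, 82.8% were higher in ob and 91.5% were higher in b6j.

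Called higher in ob were Cox6a1, a subunit of complex IV, at 0.36 ± 0.09 (adjusted p = 0.0173), and Uqcrq, a small subunit of complex III, at 0.28 ± 0.08 (adjusted p = 0.0246). The first call ended without ob control replicate 1 or 4 or treated replicate 2 (adjusted p of 0.0505 to 0.0714), and the second without those 3 or treated replicate 1, 3, 5 or 6 (adjusted p of 0.0508 to 0.0938). Replicate 4 of this group left out gave 6 called members, and replicates 5 and 6 of the high-dose ob group left out gave 6 and 4. With library size as the only scaling the median gene moved to -0.11, both calls ended (adjusted p = 0.0547 and 0.0908), and 0 members were called higher and 2 lower. Called lower in b6j was Cox7a2 at -0.32 ± 0.07 (adjusted p = 0.0201), a call that ended without control replicate 2 or 3 or treated replicate 1, 3, 4 or 6 (adjusted p of 0.0542 to 0.0725).

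At this dose the ob libraries all lay above the controls for 1 member, Uqcrfs1, against 4.3% of all genes, and below them for 0, against 1.39%. In b6j all 6 lay below the controls for Cycs (-0.25 ± 0.10) and Ndufb4 (-0.20 ± 0.07), against 0.369% of all genes, and above them for 0, against 0.677%. Neither was called.

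Without cadmium, 12 of 97 members were called lower in ob than in b6j, against 8.93% of all genes, and 1 higher, against 6.6%, together 13 calls against 15.5%. The 4 falls with the smallest p were Ndufa10 of complex I (-0.30 ± 0.06), Ndufv3 of complex I (-0.45 ± 0.09), Atp5d, the δ subunit of complex V (-0.36 ± 0.07), and Cycs (-0.44 ± 0.10). Cyc1 (-0.24), Uqcrc1 (-0.30), Cox5a (-0.18) and Atp5b (-0.23) were also called lower. Cox6c, a subunit of complex IV, was called higher at 0.20 ± 0.06 (adjusted p = 0.0217). That call ended without ob control replicate 5 or 6 or b6j control replicate 4 (adjusted p of 0.0548 to 0.0676), and that of Cox5a without ob control replicate 1 or 4 or b6j control replicate 1 or 3 (adjusted p of 0.056 to 0.0778).

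Atp5d had 426, 484 and 519.8 CPM as lowest, median and highest in ob controls, against 543, 617 and 653 CPM in b6j controls. The groups did not overlap, as was so for 10 members lower in ob, against 7.93% of all genes, and for 3 higher, against 5.37%. The direction depends on scaling, for all genes as for the members. With library size alone the median gene moved to 0.16, and 20 members were called higher and 4 lower in ob controls. Of all genes called under that scaling 77.7% were higher, against 42.5% under the main scaling. With the covariate for the 12 libraries 9 were called lower and 0 higher, and Atp5b (adjusted p = 0.0587), Cox5a (adjusted p = 0.0947) and Cox6c (adjusted p = 0.153) were no longer called. Without replicate 5 of ob at 2 mg/kg, which enters the common estimate of spread, 6 were higher and 21 lower, and without replicate 6 of b6j at 0.5 mg/kg 21 were called. For these counts without a library the share of all genes called is not given.

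Between treated groups more members were called higher in ob than lower. At 0.5 mg/kg 10 were higher in ob than in b6j, against 4.58% of all genes, and 0 lower, against 5.06%, where 9.64% of all genes were called. At 2 mg/kg 14 were higher in ob, against 7.9% of all genes, and 3 lower, against 8.53%, where 16.4% were called. With the covariate the counts were 5 higher and 0 lower at 0.5 mg/kg, and 12 higher and 3 lower at 2 mg/kg. A fit to the compared groups alone called 17 at 0.5 mg/kg and 2 at 2 mg/kg, and library size alone gave 20 and 30. Leaving out replicate 5 of ob at 2 mg/kg gave 20 calls at 0.5 mg/kg, leaving out replicate 6 of b6j at 0.5 mg/kg gave 16, and leaving out replicate 6 of ob or replicate 1 or 3 of b6j at that dose gave 5 or 6. For the high dose, leaving out replicate 6 of treated ob gave 28 calls.

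Cox6c was higher in ob by 0.32 ± 0.06 at 0.5 mg/kg and by 0.29 ± 0.06 at 2 mg/kg. Atp5mpl, a small subunit of complex V, was higher by 0.31 ± 0.07 and 0.36 ± 0.07, and Ndufa7, an accessory subunit of complex I, by 0.29 ± 0.07 and 0.41 ± 0.07. Ndufa3, another accessory subunit of complex I, was higher by 0.32 ± 0.08 at 0.5 mg/kg and by 0.32 ± 0.08 at 2 mg/kg, and Cox7a2l by 0.34 ± 0.09 at 2 mg/kg. For Cox7a2l the difference was 0.21 ± 0.06 (adjusted p = 0.00959) without replicate 5 of ob, and the fit to the compared groups alone ended its call (adjusted p = 0.165) and that of Ndufa7 (adjusted p = 0.0622). Ndufa7 had 74.3, 81.7 and 118 CPM as lowest, median and highest in ob at 2 mg/kg, against 59.7, 65.2 and 71.7 CPM in b6j at 2 mg/kg. These libraries did not overlap, as was so at 2 mg/kg for 3 members higher in ob (Atp5mpl, Cox6c and Ndufa7), against 1.62% of all genes, and 0 lower, against 3.56%. At 0.5 mg/kg it was so for 3 higher, against 4.25%, and 1 lower (Atp5b), against 4.69%.

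Lower in ob at 2 mg/kg were Atp5b (-0.23 ± 0.06) and the complex I assembly factors Ndufaf3 (-0.26 ± 0.09) and Ndufaf1 (-0.27 ± 0.09). The call of Ndufaf1 ended without any 1 of 30 libraries (adjusted p of 0.0503 to 0.141). None of the 3 was called in a fit to the compared groups alone or without the filter on low counts. The call of Ndufaf3 ended without replicate 1, 3 or 5 of ob or replicate 1, 4, 5 or 6 of b6j at 2 mg/kg (adjusted p of 0.0651 to 0.0837). Cox6b2, the testis form of subunit 6b, was called higher in ob at 1.08 ± 0.33. Replicate 5 alone held 36.1 CPM of it, where the other ob libraries at 2 mg/kg held 4.32 to 7.04 CPM. Without replicate 5 the difference was 0.19 ± 0.17 (adjusted p = 0.515), and without replicate 6 of b6j at 2 mg/kg the adjusted p was 0.0543.

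**Figure D3:**
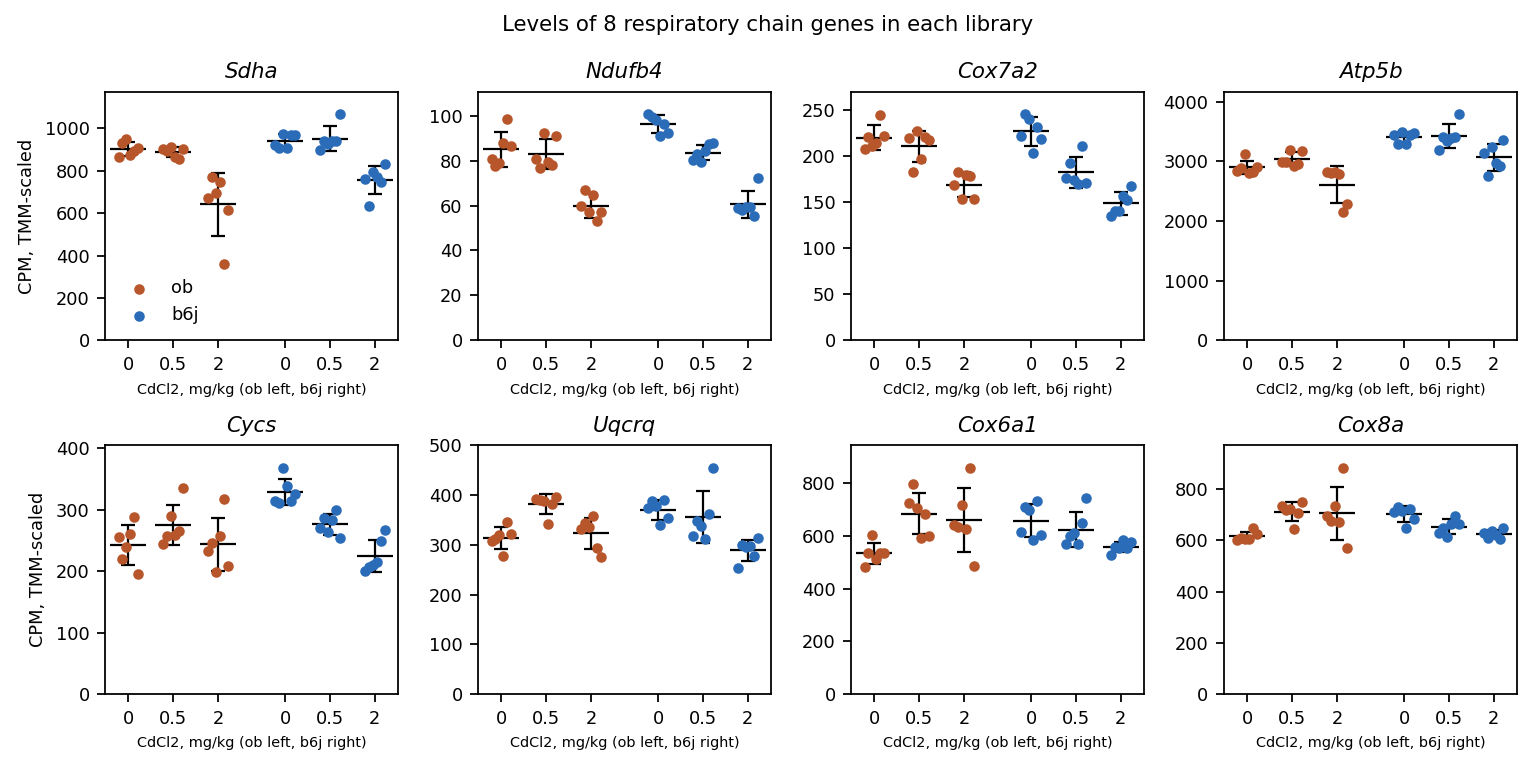
CPM of 8 genes in each library (vertical axes, from 0) by CdCl2 dose in mg/kg, with ob left of b6j (horizontal axes). Points are libraries and lines are means with SD; Sdha, Ndufb4 and Cox7a2 are lower at 2 mg/kg than in controls in both genotypes, whereas for Cycs and Uqcrq the 2 mg/kg group overlaps the controls in ob and lies below them in b6j.

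Whether cadmium acted differently in the 2 genotypes was tested with the interaction of dose and genotype, ob minus b6j. At 0.5 mg/kg 0 members were called higher, against 0.369% of all genes, and 0 lower, against 0.0165%, where edgeR called 0.385% of genes in all. At an unadjusted p below 0.05, 29 members were higher and 0 lower at this dose, and 31 higher and 2 lower at 2 mg/kg. DESeq2 called 1 member at 0.5 mg/kg and limma-voom with sample weights 29. The share of all genes is not given beside these counts, so they are not a result about the members alone. At 2 mg/kg 4 members were called higher, against 1.06% of all genes, and 0 lower, against 1.01%, where 2.07% were called in all. The median member differed by 0.14 at 0.5 mg/kg and by 0.12 at 2 mg/kg, and 84 and 74 of 97 were positive. For all genes the medians were -0.006 and 0.003. With library size alone the median gene moved to -0.10 at both doses and the median member to 0.05 and 0.02, and at 2 mg/kg 2 members were called higher and 1 lower. With the covariate for the 12 libraries 0 members were called at 0.5 mg/kg and 5 higher and 0 lower at 2 mg/kg. The interaction uses the same control libraries as the comparison of untreated genotypes.

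Cycs, cytochrome c itself (chromosome 6, 50562563 to 50566538), carries electrons and also triggers caspases when it leaves the mitochondrion. It had 198, 239 and 318 CPM as lowest, median and highest at 2 mg/kg in ob, against 196, 247 and 288 CPM in controls. In b6j it had 201, 213 and 267 CPM, against 311, 320.1 and 368 CPM in controls. The ob groups overlapped over most of their range and the b6j groups did not overlap. Its log2 ratio was 0.00 ± 0.10 in ob (adjusted p = 0.987) and -0.55 ± 0.10 in b6j (adjusted p = 5.48e-05), and the difference was 0.55 ± 0.14 (adjusted p = 0.0264).

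Cox6a1 (chromosome 5, 115345642 to 115348981), whose window with NRF1 and GABP motifs is printed above, is the common form of subunit 6a. It had 486, 639 and 858 CPM as lowest, median and highest at 2 mg/kg in ob, against 483, 534 and 603 CPM in controls. Its b6j libraries had 526, 556 and 583 CPM at 2 mg/kg, against 586, 657 and 734 CPM in controls. In ob 5 treated libraries lay above all controls and 1 did not, and in b6j all treated libraries lay below the controls. Its log2 ratio was 0.31 ± 0.09 in ob (adjusted p = 0.00824) and -0.24 ± 0.09 in b6j (adjusted p = 0.0617), and the difference was 0.55 ± 0.13 (adjusted p = 0.0216).

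Cox8a (chromosome 19, 7215153 to 7217616), a small subunit of complex IV whose window holds GABP motifs only, had 571, 687 and 883 CPM as lowest, median and highest at 2 mg/kg in ob, against 602, 609 and 650.3 CPM in controls. Its b6j libraries had 606, 625 and 648 CPM at 2 mg/kg, against 648, 713 and 732 CPM in controls. The groups overlapped in both genotypes, in ob through 1 treated library that lay below all controls. Its log2 ratio was 0.19 ± 0.06 in ob (adjusted p = 0.0157) and -0.17 ± 0.06 in b6j (adjusted p = 0.0547), and the difference was 0.36 ± 0.09 (adjusted p = 0.0276). With replicate 5 of ob at 2 mg/kg left out, the b6j ratios of Cox6a1 (-0.24 ± 0.08, adjusted p = 0.0149) and Cox8a (-0.17 ± 0.05, adjusted p = 0.00404) were both called lower.

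Uqcrq (chromosome 11, 53427922 to 53430831) had 276, 334 and 358 CPM as lowest, median and highest at 2 mg/kg in ob, against 278, 316 and 345 CPM in controls. Its b6j libraries had 253, 297 and 313 CPM at 2 mg/kg, against 340.2, 376 and 391 CPM in controls. The ob groups overlapped and the b6j groups did not. Its log2 ratio was 0.04 ± 0.08 in ob (adjusted p = 0.711) and -0.36 ± 0.08 in b6j (adjusted p = 0.000550), and the difference was 0.40 ± 0.11 (adjusted p = 0.0426).

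These 4 calls differed in how far they rest on single libraries. That of Cox6a1 held without each of the 36 libraries in turn. That of Cycs ended without b6j control replicate 3 (adjusted p = 0.0548), and that of Cox8a without b6j control replicate 3 or 5 (adjusted p of 0.0501 to 0.0515). That of Uqcrq ended without any 1 of 11 libraries (adjusted p of 0.0529 to 0.0772). In a fit to the 4 compared groups alone, Cycs (adjusted p = 0.0604) and Cox8a (adjusted p = 0.0762) were no longer called, and with library size alone Cox8a (adjusted p = 0.0691) and Uqcrq (adjusted p = 0.0610) were not. With no filter on low counts the calls of Cox8a (adjusted p = 0.0867) and Uqcrq (adjusted p = 0.0980) ended. Without replicate 5 of ob at 2 mg/kg 11 members were called, with differences of 0.47 for Cycs, 0.47 for Cox6a1, 0.30 for Cox8a and 0.44 for Uqcrq. Without b6j control replicate 3, 1 was called, without b6j control replicate 5, 2, and without b6j control replicate 4, 7. Without replicate 6 of b6j at 2 mg/kg 8 were called, without replicate 6 of b6j at 0.5 mg/kg 12, and without replicate 6 of ob at 2 mg/kg 14. Leaving out a library alters the common estimate of spread and the scaling for all genes. The share of all genes called is not given beside these counts, so their rise is not a result about the members alone. All 4 genes were also lower in ob controls than in b6j controls, with log2 differences of -0.44 for Cycs, -0.30 for Cox6a1, -0.19 for Cox8a and -0.24 for Uqcrq, from the same control libraries.

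**Figure D4:**
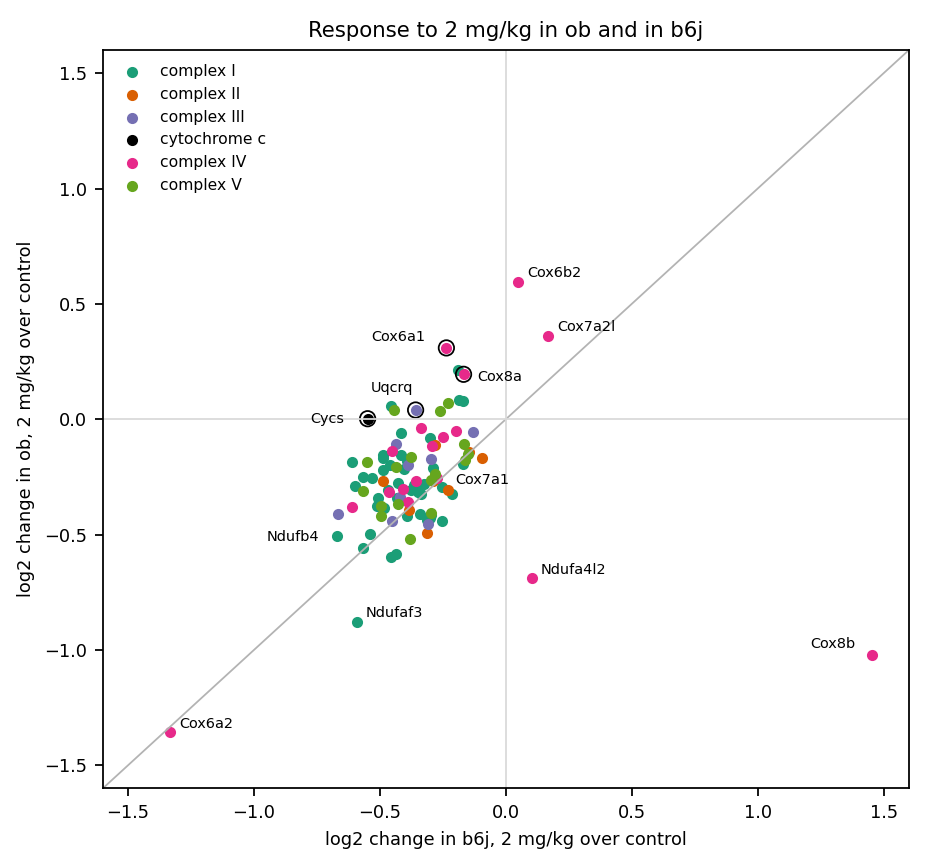
Log2 change at 2 mg/kg over control in ob (vertical axis) against that in b6j (horizontal axis) for the 97 tested genes, coloured by complex, with the line of equality. The 4 circled genes, Cycs, Uqcrq, Cox6a1 and Cox8a, have a called difference in response and lie above the line.

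Other genes that serve the chain were read from lists chosen by function. After the high dose, 5 of 11 complex I assembly genes with other names were called lower and 1 higher in ob, and 7 lower in b6j. Of 21 tested complex IV assembly genes, 6 were lower and 1 higher in ob, and 13 lower and 1 higher in b6j. Of 6 complex III assembly genes, 3 were lower and 1 higher in ob, and 2 lower in b6j, or 4 lower in b6j without replicate 5 of ob at 2 mg/kg. Uqcc3, which helps to assemble cytochrome b, changed by -1.51 ± 0.12 in ob (adjusted p = 2.97e-12) and -1.05 ± 0.12 in b6j (adjusted p = 1.46e-08).

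Of 5 assembly and inhibitor genes of complex V, 3 were called lower in ob and 3 in b6j. Atpif1, the inhibitor of ATP hydrolysis by complex V, had a log2 ratio of 0.12 ± 0.09 in ob, not called, and of -0.42 ± 0.09 in b6j, called, and the difference in response was 0.54 ± 0.13 (adjusted p = 0.0207). Of 4 supercomplex and cytochrome c lyase genes, 2 were called higher in ob, Cox7a2l and Hccs, which attaches heme to cytochrome c (0.39 ± 0.14). Without replicate 5 Hccs was no longer called. In b6j 2 were called lower, Higd1a (-0.51 ± 0.07) and Higd2a (-0.44 ± 0.08), which bind complexes III and IV.

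Among 16 regulators of respiratory chain transcription, 5 were called lower and 1 higher in ob, and 2 lower in b6j. The b6j counts were 4 lower and 1 higher with replicate 5 of ob at 2 mg/kg left out. Esrra, a nuclear receptor that activates many of these genes, changed by -0.41 ± 0.14 in ob and -0.50 ± 0.14 in b6j, both called. Tfam, which packages and transcribes mitochondrial DNA, changed by -0.38 ± 0.06 in ob and -0.19 ± 0.06 in b6j, both called, and Pprc1, a coactivator related to PGC-1, by 0.42 ± 0.13 in ob with a call. Nrf1, Gabpa and Ppargc1a were called in neither genotype, and Yy1 was called lower in ob at -0.14 ± 0.05.

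Of 14 citric acid cycle genes, 10 were called lower and 1 higher in ob, and 11 lower and 1 higher in b6j. The one called higher in both was Cs, citrate synthase, at 0.52 ± 0.07 in ob and 0.32 ± 0.07 in b6j, while Fh1, fumarate hydratase, changed by -0.71 ± 0.10 and -0.46 ± 0.10. Of 15 carrier, pore and import genes, 6 were lower and 1 higher in ob, and 7 lower in b6j. Slc25a4, an ADP/ATP carrier, changed by -1.05 ± 0.09 in ob and -0.75 ± 0.09 in b6j.

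Mitochondrial DNA was represented separately. Of its 13 protein-coding genes, 6 were called higher in ob after the high dose, 3 in ob after the low dose and 1 in b6j after the high dose, with medians of 0.63, 0.44 and 0.21, and 0 were called lower in these comparisons. Without replicate 5 of ob at 2 mg/kg the counts were 9, 9 and 3. Of 77 tested nuclear genes of mitochondrial ribosomal proteins, 27 were called lower at 2 mg/kg and 5 higher in ob, and 49 lower and 1 higher in b6j. Of 69 cytosolic ribosomal protein genes, 66 were higher and 1 lower in ob, and 10 higher and 1 lower in b6j. Without replicate 5 of ob these counts were 63 higher and 1 lower in ob, and 32 higher and 1 lower in b6j.

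**Figure D5:**
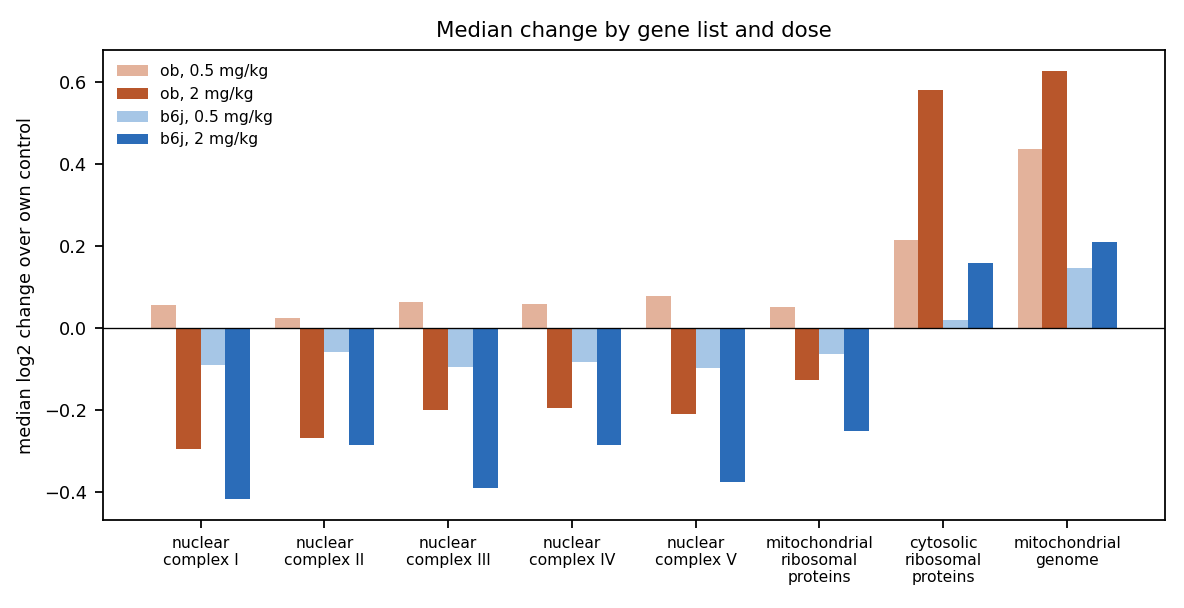
Median log2 change over the own control (vertical axis) for the nuclear genes of each complex, for ribosomal protein genes and for the protein-coding genes of mitochondrial DNA (horizontal axis), in ob and b6j at each dose. At 2 mg/kg the complexes and the mitochondrial ribosomal proteins lie below 0 in both genotypes, and the cytosolic ribosomal proteins and mitochondrial DNA genes above 0.

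Markers of kidney cells were read at 2 mg/kg too. Of 12 proximal tubule markers, 7 were called lower in ob and 3 in b6j. Their summed CPM ran from 2201 to 24020 in ob at 2 mg/kg, against 27850 to 38000 in controls, and from 25110 to 37530 in b6j at 2 mg/kg, against 47430 to 60440 in controls. Of 7 tubular injury markers, 7 were called higher in ob and 5 in b6j. Their summed CPM ran from 2141 to 15850 in ob at 2 mg/kg, against 976 to 1325 in controls, and from 1640 to 1876 in b6j at 2 mg/kg, against 641 to 892 in controls. With replicate 5 of ob left out, 8 proximal tubule markers were called lower in ob and 10 in b6j, and 7 injury markers higher in ob and 6 in b6j.

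Called lower in ob were also 5 of 8 markers of thick ascending limb and distal tubule, 7 of 8 of collecting duct, 4 of 6 of podocytes and 6 of 6 of endothelium, and in b6j 3, 1, 0 and 0 of them. Of 8 macrophage and T cell markers, 3 were higher and 1 lower in ob, and 3 higher in b6j. The counts lower in ob without replicate 5 were 5, 6, 5 and 3 and those in b6j 4, 3, 0 and 1, and 5 macrophage and T cell markers were higher in ob and 4 in b6j. The part of cell composition in the changes of the members was not tested. Without replicate 5 of ob at 2 mg/kg, which has the lowest proximal tubule sum and the highest injury sum, 57 members were lower and 3 higher in ob and 87 lower and 1 higher in b6j.

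Per kilobase of exon, b6j controls held most Cox8a, at 1134 ± 50.5 CPM per kb (SD, n = 6), then Cox6a1 at 937 ± 89.5, Atp5b at 804 ± 20.96, Atp5a1 at 753 ± 19.8 and Uqcr10, a small subunit of complex III, at 599.5 ± 47.3. The length used is that of all annotated exons of a gene together, 619 bases for Cox8a and 4237 for Atp5b, and the order depends on it. Without that division Atp5b had 3408 CPM and Cox8a 702 CPM. The neighbours Cox4i1, at 488 ± 32.7, and Cox6b1, at 460.3 ± 21.9, differed by less than the SD of Cox4i1. The lowest mean of the 97 tested was that of Cox4i2, the lung form of subunit 4, at 0.693 ± 0.184. Cox8b had a higher mean, at 1.54 ± 2.70, through its highest library of 2.51 CPM. Its median was 0.0904 CPM, against 0.526 CPM for Cox4i2. Of the 97, 35 share exon bases with another gene, 14 of them over more than 10% of their exon length and 2, Ndufaf2 and Sdhaf1, over more than 50%, and their levels are the less certain for it.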

How the data were processed

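Kidney RNA from 36 samples was measured by RNA-seq. The deposited values are whole-number read counts per gene, made by the authors with featureCounts 1.4.6-p2 over exons of the Ensembl 96 annotation of GRCm38, per the file headers. These show default settings, so strand was not used and reads matching several places or genes were not counted, which lowers genes that overlap others or have close copies. Reads were handled with bcl2fastq, Trimmomatic, FastQC and STAR, per the submitters' processing notes. Each sample's own count file was used, and the joined deposited table served for comparison only.

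CPM and log2 changes were computed here. Genes were filtered with filterByExpr, scaled by TMM, with factors between 0.892 and 1.12, and tested in 1 edgeR 4.0.16 quasi-likelihood model of all 36 libraries (R 4.3.3), with Benjamini-Hochberg adjustment over the 18180 genes tested. The standard error is the log2 change divided by the root of F. Alternatives used DESeq2 1.42.0, limma 3.58.1 voom with sample weights, other scalings and filters, the compared groups alone, a replicate block and leaving out each library. The covariate for the 12 libraries, the values without single doubted libraries and their list counts were added after seeing the data. Counts of libraries with depths of 26783936 to 37244058 reads give 3 reads a value of 0.0806 to 0.112 CPM, which covers counting error only. Promoters came from RefSeq windows, and tables were handled with Python 3.11.15 and pandas 2.3.3.

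The members and gene lists were chosen with earlier results of these data known. Named throughout were core subunits (Ndufs1, Ndufv1, Sdha, Sdhb, Cyc1, Uqcrc1, Cycs, Cox4i1, Cox5a, Atp5a1, Atp5b, Atp5g1 to Atp5g3) and second isoforms, with up to 4 called members of smallest p in each direction of each comparison. Ndufaf1, Ndufb2, Ndufs3, Sdhc, Sdhd, Uqcrfs1, Uqcr10, Cox6b1, Ndufaf2, Sdhaf1, a gene shown at a comparison where the rule does not place it, and the named genes of the other lists were picked after their values were seen.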

Additional observations from a re-analysis of the deposited data

Results flagged for a closer look

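A library far from the other 5 of its group, by Dixon's 95% limit, was found in 28 of 186 groups tested (31 quantities in 6 groups), where chance gives about 1 in 20, and the quantities share their libraries. Replicate 6 of b6j at 0.5 mg/kg was the highest in 14 of the 28. Its median member lay at 0.154 from the mean of b6j controls on the log2 scale, against -0.21 to -0.09 in the others of its group. Its summed level was 6694 CPM, against 5050 to 5477 CPM in the others for complex I, 2487 CPM, against 1955 to 2123 CPM for complex II, 3560 CPM, against 2850 to 3099 CPM for complex III and 11170 CPM, against 9177 to 9877 CPM for complex V.

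Single genes of that library were also high relative to the others of its group. Ndufv1 had 525 CPM, against 365 to 388 CPM, and Ndufa13, a complex I subunit, 279 CPM, against 159 to 191 CPM. Sdha had 1067 CPM, against 898 to 941 CPM, Uqcrc1 682 CPM, against 507 to 558 CPM and Uqcrq 455 CPM, against 311 to 362 CPM. Cox4i1 had 919 CPM, against 627 to 719.7 CPM, and Atp5b 3790 CPM, against 3195 to 3408 CPM. Atp5g1 had 342 CPM, against 241 to 277 CPM, and Atp5g3 771 CPM, against 542 to 614 CPM. Without this library 0 members were called between b6j at 0.5 mg/kg and b6j controls. This is not particular to it, as the call of Cox7a2 also ended without control replicate 2 or 3 or treated replicate 1, 3 or 4.

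Replicate 5 of ob at 2 mg/kg was lowest for Ndufs1 (117 CPM, against 219.6 to 249 CPM in the others), Sdha (361 CPM, against 616 to 769 CPM) and Ndufa4l2 (0.405 CPM, against 3.07 to 4.20 CPM), and highest for Cox7a2l (305 CPM, against 169.8 to 203 CPM). Replicate 4 of b6j controls was lowest for summed complex V (9578 CPM, against 10160 to 10340 CPM), Ndufv1 (367 CPM, against 429.7 to 453 CPM), Sdhb (389 CPM, against 426 to 442 CPM) and Cox7a2l (127 CPM, against 144 to 154 CPM). Replicate 6 of b6j at 2 mg/kg was highest for Ndufb4 (72.5 CPM, against 55.4 to 59.5 CPM) and Atp5g1 (254 CPM, against 203 to 220.3 CPM). Replicate 4 of ob at 0.5 mg/kg was lowest for Ndufa13 (166 CPM, against 202 to 220.1 CPM) and Uqcrq (342 CPM, against 382 to 397 CPM). Replicate 3 of ob controls was highest for Atp5b (3118 CPM, against 2808 to 2911 CPM), and replicate 5 of b6j controls for Atp5g2 (154 CPM, against 146 to 149 CPM).

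The response to 2 mg/kg differed between ob and b6j by edgeR's interaction test for 4 members, by 0.55 ± 0.14 for Cycs (adjusted p = 0.0264), 0.55 ± 0.13 for Cox6a1 (adjusted p = 0.0216), 0.36 ± 0.09 for Cox8a (adjusted p = 0.0276) and 0.40 ± 0.11 for Uqcrq (adjusted p = 0.0426), on the log2 scale.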

How the results depend on the processing

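Counts of called members depended on the fit where few were called, and the causes were not tested. Each other setting, and each library left out, also alters the tests of all genes. The share of all genes called is not given beside these counts, here or above. Between treated and control ob at 0.5 mg/kg, 2 calls became 4 with DESeq2, 13 with limma-voom, 1 with no filter and 8 with the compared groups alone. At 2 mg/kg in ob, 60 became 39 with the compared groups alone (0 higher). For b6j at 0.5 mg/kg, 1 became 9 with limma-voom, 0 with no filter and 3 with the compared groups alone, and for b6j at 2 mg/kg 76 stayed within 66 to 89. Between ob and b6j controls, 13 became 32 with limma-voom, 24 with library size alone, 8 with no filter and 32 with the compared groups alone. Between ob and b6j at 0.5 mg/kg, 10 became 37, 20, 5 and 17 under the same 4 settings and 5 with the covariate. Between them at 2 mg/kg, 17 became 30 with library size alone, 9 with no filter and 2 with the compared groups alone. For the difference in response, 0 at 0.5 mg/kg became 1 with DESeq2, 29 with limma-voom and 5 with the compared groups alone. At 2 mg/kg, 4 became 16 with DESeq2, 22 with limma-voom, 9 with RLE scaling or the stricter filter (CPM of 1 in 6 libraries) and 2 with no filter. Leaving out each library gave 0 to 6 calls in ob at 0.5 mg/kg, 53 to 64 in ob at 2 mg/kg, 0 to 1 in b6j at 0.5 mg/kg, 70 to 88 in b6j at 2 mg/kg, 9 to 27 between controls, 5 to 20 and 12 to 28 between genotypes at 0.5 and 2 mg/kg, and 0 to 4 and 1 to 14 for the response. Of 566 values of 63 named calls under other settings, 55 lost the call and 0 changed sign, and DESeq2 gave no adjusted p for Cox6b2 between ob and b6j at 2 mg/kg. A replicate block gave 3, 60, 1, 75, 13, 10, 15, 0 and 3 calls in the order above. Same-numbered libraries had correlations above 0.1 in 5 of 90 pairs (-0.18 to 0.24), so they share a number only.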
